A study of Mus musculus with 26 samples.

Results

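Nucleolar ribosome biogenesis factors are the proteins that make, fold, modify and cut ribosomal RNA precursors in the nucleolus. They were followed here through an RNA-seq study of ERR beta (gene Esrrb) in mouse embryonic stem cells (ESCs), which are cultured cells from the early embryo that can give rise to all tissues. Members were taken by name and a minimum count: gene symbols beginning with Nop, Utp, Rrp or Nol and a digit, Nolc1, Noc2l to Noc4l, and Ncl, Npm1, Fbl, Dkc1, Gar1, Nhp2, Bop1, Pes1, Rrs1 and Ebna1bp2, with at least 10 counts over all libraries. The rule took in 48 of the 24421 genes in the count table, and all 48 had enough counts to be tested.

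The study grew 7 groups of ESC clones, and each group held 2 clones. WT/Mock was wild type for ERR beta and KO/Mock was ERR beta -/-, and neither expressed an added receptor. The other 5 groups were ERR beta -/- cells given an inducible receptor: wild type ERR beta (KO/ERRb-wt), ERR beta with the DNA-binding deficient change DBDm3 (KO/ERRb-DBDm3), the TFIIH-binding deficient change DBDm6 (KO/ERRb-DBDm6) or the coactivator-binding deficient change AF2M6 (KO/ERRb-AF2M6), or wild type ERR gamma (KO/ERRg-wt). Every group, both Mock groups included, received doxycycline at 2 µg/ml for 3 days, starting from 1600 seeded cells in N2B27 medium with the inhibitors PD and CH (the growth protocol also names LIF). TFIIH is a general transcription factor of RNA polymerase II that unwinds promoter DNA, and doxycycline switches on the inducible constructs. Each clone gave 2 libraries, except that KO/ERRg-wt clones gave 1, which made 26 libraries of 14 clones. Tests treated clones as the replicates (n = 2 per group), so values below are the CPM of a clone (counts scaled to a common library total) after its libraries were added.

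Ribosome production begins with transcription of a long ribosomal RNA precursor by RNA polymerase I. Box C/D small nucleolar ribonucleoproteins then place 2′-O-methyl groups on the precursor, and box H/ACA particles turn uridines into pseudouridines. The small subunit processome folds and cleaves the part that becomes the small (40S) ribosomal subunit, and separate sets of factors mature the large (60S) subunit. The genes for these factors are expressed strongly in proliferating cells such as ESCs, and the MYC transcription factors are well known activators of many of them. ERR beta is an orphan nuclear receptor of the naive ESC network, and ERR gamma is a related receptor that binds similar DNA sites.

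Library totals ran from 21276790 to 30021667 counts. Esrrb itself was at 603 and 560 CPM in the WT/Mock clones and 277 and 276 CPM in the KO/Mock clones, so reads from the gene persisted in cells labelled ERR beta -/-. In the 4 groups given an ERR beta construct Esrrb lay between 410 and 553 CPM per clone. It was also at 477 and 466 CPM in the KO/ERRg-wt clones, which were given ERR gamma and no ERR beta construct. Esrrg reached 229 and 124 CPM in the KO/ERRg-wt clones against at most 0.240 CPM elsewhere. Gene counts do not separate endogenous transcripts from those of a construct, and the deleted part of Esrrb is not given in the sources used here. Esrrb, the targeted gene, was thus lower in KO/Mock than in WT/Mock (log2 fold change -1.07 ± 0.07 SE, adjusted p = 3.42e-05). The 6 ESC markers examined, among them Pou5f1 (744 CPM in WT/Mock, 934 in KO/Mock) and Nanog (918 and 563), were well expressed in every group. Of the 6 fibroblast markers, Postn was at 0 in every group and Col3a1 was at most 0.121 CPM. All 6 summed to 3.67 and 7.01 CPM in the WT/Mock clones and 2.68 and 2.84 in KO/Mock. The 4 that could be tested gave 1 higher and 2 lower in KO/Mock against WT/Mock. Of the mesoderm markers, T was at 10.9 CPM in WT/Mock and 49.9 CPM in KO/Mock. Whole chromosomes stood apart: the median gene of chromosome 14 was at -0.56 to -0.49 against WT/Mock on the log2 scale in all 6 ERR beta -/- groups. The median gene of chromosome 6 (-0.90 to -0.31) and of chromosome 8 (-0.49 to -0.45) was shifted in KO/ERRb-DBDm3, KO/ERRb-DBDm6, KO/ERRb-AF2M6 and KO/ERRg-wt, but not in KO/Mock or KO/ERRb-wt. In those 4 groups the receptor and the lineage of the clones cannot be told apart. Likewise, loss of ERR beta and clone lineage cannot be told apart in KO/Mock against WT/Mock, where chromosome 14 was shifted. The 3 members on chromosomes 6, 8 and 14 are Nop2 (6), Nol3 (8) and Nop9 (14).

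The members differed widely in level. Compared per kilobase of exon over all clones, Npm1 stood at 2348 CPM per kilobase, followed by Nop56 at 249 and Nhp2 at 239. Npm1, or nucleophosmin, is a chaperone of pre-ribosomes and histones. At the other end Nol3 was at 0.388 and Nol4 at 0.0438 CPM per kilobase. Nol3 (an inhibitor of apoptosis), Nol4, Nol4l and Utp14b (a retrogene copy of Utp14a) carry the names without being established ribosome factors of somatic cells, and they are kept apart below as taken in by name only. Among the established factors the lowest was Utp23, a small subunit processome protein, at 6.45 CPM per kilobase. Utp14b shares 10.5% of its exonic bases with Acsl3 and Ebna1bp2 shares 20.4% with D4Ertd617e on the same strand, so part of their counts cannot be assigned.

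Together the 48 members took 1.02% to 1.32% of a library. Their summed level was 9754 and 10291 CPM in the WT/Mock clones and 13062 and 12995 CPM in the KO/Mock clones. KO/ERRb-wt gave 10992 and 11957 CPM and KO/ERRg-wt gave 11301 and 11181 CPM, between the Mock groups and overlapping neither. KO/ERRb-DBDm3 (12811 and 12771), KO/ERRb-DBDm6 (12846 and 12189) and KO/ERRb-AF2M6 (12878 and 13404) lay closer to the KO/Mock level. Npm1 alone supplied 2886 to 4842 CPM of these sums. Without it the order changed in part: WT/Mock stood at 7051 ± 259 CPM (SD, n = 2), KO/Mock at 8944 ± 67.3 CPM, KO/ERRg-wt at 7415 ± 37.2 CPM and KO/ERRb-wt at 7821 ± 379.9 CPM. The mutants then stood at 8416 ± 257 CPM (KO/ERRb-DBDm3), 7959 ± 233 CPM (KO/ERRb-DBDm6) and 8378 ± 261 CPM (KO/ERRb-AF2M6). In these sums KO/ERRb-DBDm6 (8124 and 7795) overlapped KO/ERRb-wt (7552 and 8089). All 3 mutant groups lay below both KO/Mock clones (8991.6 and 8896.5), with KO/ERRb-DBDm3 at 8597.8 and 8234.1 and KO/ERRb-AF2M6 at 8193.5 and 8562.9. In single libraries, with Npm1, library 2 of KO/ERRb-DBDm6 clone 10-26 (11483 CPM) was also inside the range of the KO/ERRb-wt libraries (10896 to 11978 CPM).

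**Figure D1:**
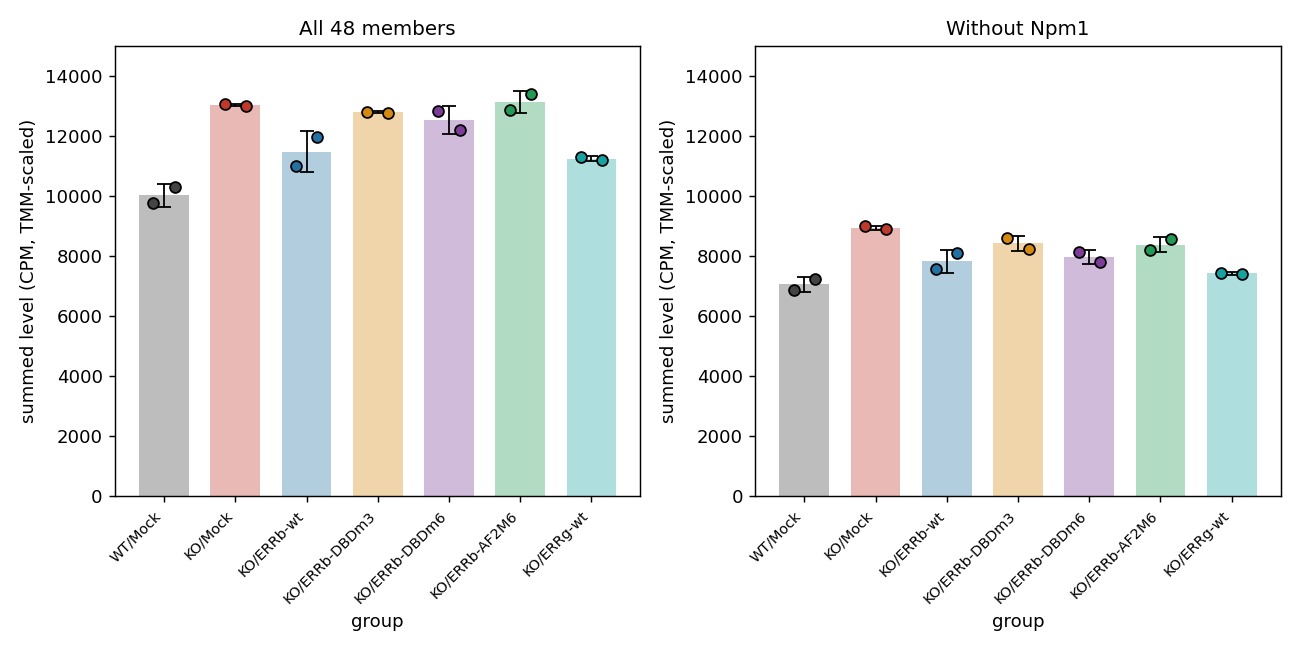
Summed level of the members in each clone (points), with the mean (bars) and SD over the 2 clones (error bars), in CPM scaled by TMM factors, with Npm1 (left) and without it (right). Both KO/Mock clones lie above both WT/Mock clones in each panel, and the KO/ERRb-wt and KO/ERRg-wt clones lie between them.

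Most of the members were higher in KO/Mock than in WT/Mock. KO/Mock exceeded WT/Mock in 33 of 48 members, fell below it in 1 (Nop9), and 14 were not called at an adjusted p under 0.05. Over all 15238 tested genes, 18% were called higher and 19.4% lower in this comparison. The median member was 0.34 higher on the log2 scale, while the median of all tested genes was within 0.01 of 0. Without the 3 members on chromosomes 6, 8 and 14 the count was 32 higher and 0 lower of 45. Leaving out WT/Mock clone 5-2 reduced the 34 calls to 21 (20 higher and 1 lower), and 21 of the 34 members stayed called whichever of the 4 clones was left out. Marker lists of other cell types moved in the same comparison. The 4 mesoderm markers summed to 10.0 and 15.7 CPM in the WT/Mock clones, 53.2 and 60.2 in KO/Mock and 3.08 and 4.27 in KO/ERRg-wt, with 2 of 4 called higher in KO/Mock than in WT/Mock and 3 of 4 lower in KO/ERRg-wt than in KO/Mock. The 4 neural markers summed to 52.4 and 56.7, 77.7 and 86.6, and 41.5 and 42.0 CPM in these groups, with 1 higher and 1 lower in the first comparison and 0 and 2 in the second. None of the 8 was at 0 in both clones of these groups, and their part in the member levels was not tested.

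**Figure D2:**
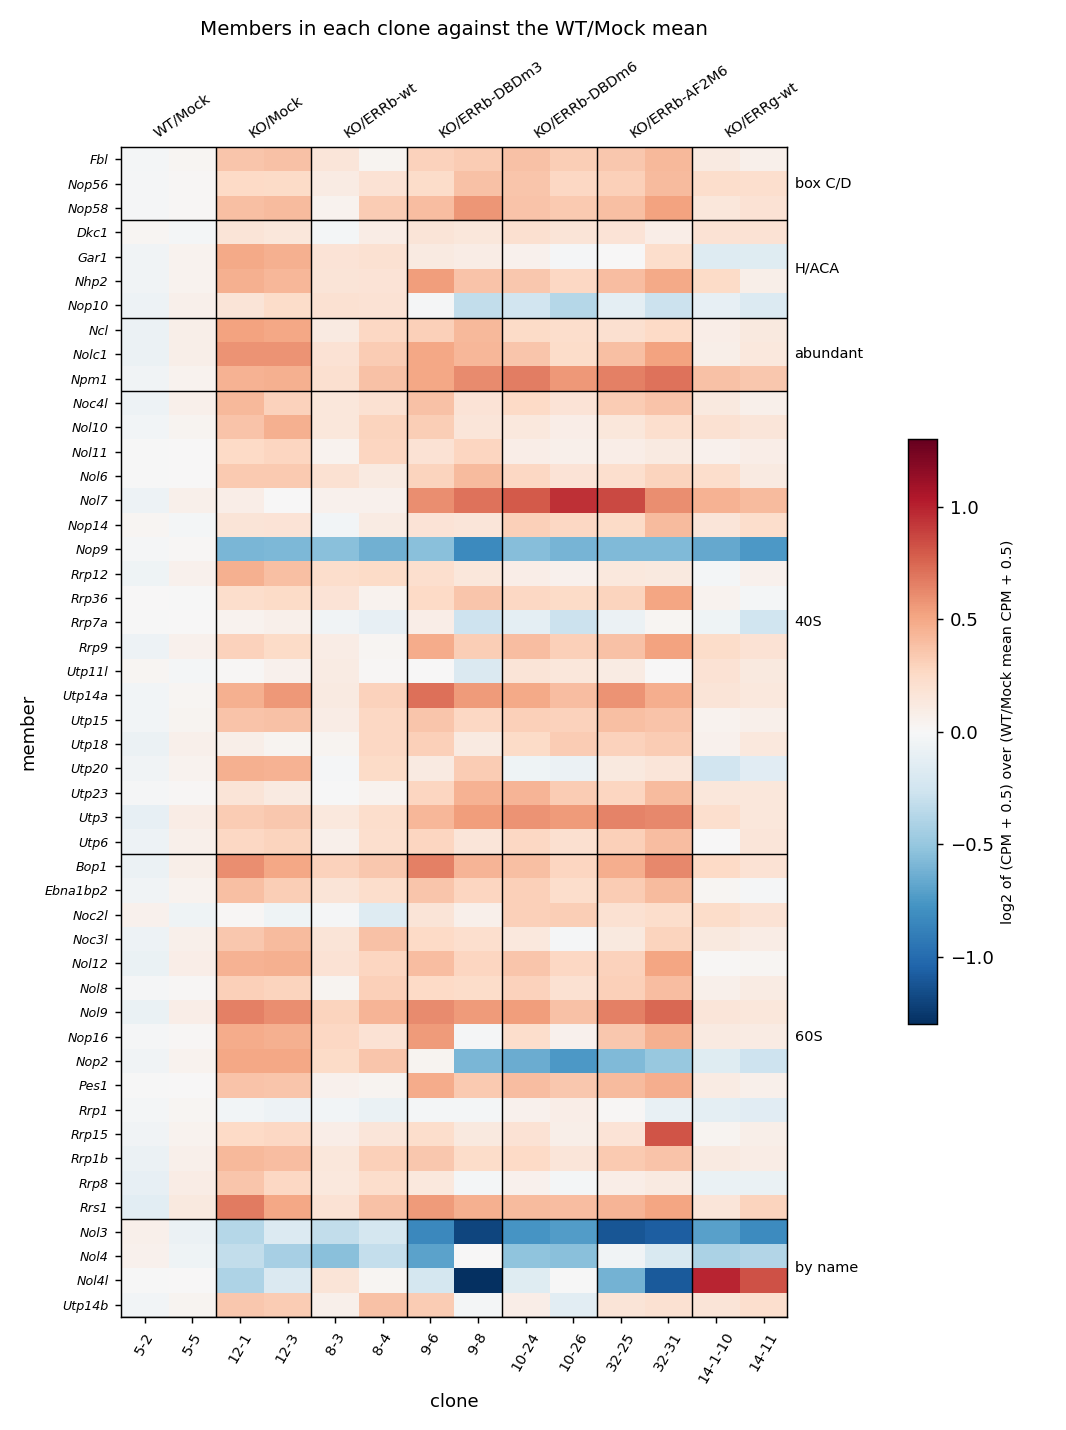
Level of each of the 48 members (rows, by role) in each of the 14 clones (columns, by group), as log2 of CPM plus 0.5 over the WT/Mock mean plus 0.5. Colours saturate at 1.3 in either direction. Most rows are red in both KO/Mock clones and paler in the KO/ERRb-wt and KO/ERRg-wt clones, while Nop9, Nop2, Nol7, Nol3 and Nol4l follow patterns of their own.

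RNA of the genes for all 3 abundant nucleolar proteins was higher in KO/Mock than in WT/Mock. Ncl encodes nucleolin, an RNA-binding protein of the nucleolus (chromosome 1, 86344719 to 86359455, minus strand, in mm10 coordinates like all positions below). It was at 782 and 868 CPM in the WT/Mock clones, 1186 and 1168 in KO/Mock, 894 and 993 in KO/ERRb-wt, 1024 and 1102 in KO/ERRb-DBDm3, 980 and 963 in KO/ERRb-DBDm6, 951 and 987 in KO/ERRb-AF2M6 and 878 and 904 in KO/ERRg-wt. The KO/Mock clones were the highest of all 14, and the WT/Mock clones overlapped no other group. The log2 fold change of KO/Mock against WT/Mock was 0.51 ± 0.07 (SE; adjusted p = 5.09e-04). Npm1 (chromosome 11, 33152498 to 33163206, minus strand) went from 2886 and 3056 CPM in WT/Mock to 4071 and 4099 in KO/Mock, a log2 fold change of 0.46 ± 0.07 (adjusted p = 8.51e-04). Unlike Ncl, Npm1 was highest in the mutant receptor groups, at 4214 and 4537 CPM in KO/ERRb-DBDm3, 4722 and 4394 in KO/ERRb-DBDm6 and 4684 and 4842 in KO/ERRb-AF2M6. Nolc1, a chaperone of small nucleolar ribonucleoproteins (chromosome 19, 46075847 to 46085543, plus strand), was at 289 and 321 CPM in WT/Mock and 458 and 457 in KO/Mock (log2 fold change 0.58 ± 0.08, adjusted p = 4.49e-04). It stood at 347 and 382 CPM in KO/ERRb-wt and 323 and 335 in KO/ERRg-wt, the lowest of the ERR beta -/- groups.

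RNA of the genes for all 3 box C/D proteins was also higher in KO/Mock, with a median log2 fold change of 0.37. Fbl encodes fibrillarin, the methyltransferase of the box C/D particles. Its level was 68.0 and 70.0 CPM in WT/Mock, 88.6 and 89.7 in KO/Mock, 77.1 and 70.5 in KO/ERRb-wt, 85.3 and 87.1 in KO/ERRb-DBDm3, 90.1 and 86.5 in KO/ERRb-DBDm6, 87.9 and 92.5 in KO/ERRb-AF2M6 and 74.7 and 72.5 in KO/ERRg-wt. The groups fell into a low set (WT/Mock, KO/ERRb-wt and KO/ERRg-wt, at most 77.1 CPM) and a high set (the other 4 groups, at least 85.3 CPM). Nop56 and Nop58, the paired scaffold proteins of the particle, gave log2 fold changes of 0.26 ± 0.06 (adjusted p = 0.00979) and 0.40 ± 0.09 (adjusted p = 0.00590) in KO/Mock against WT/Mock.

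The box H/ACA core was split, with 2 of 4 members called higher in KO/Mock. Gar1 rose from 27.3 and 29.2 to 39.99 and 39.1 CPM (log2 fold change 0.49 ± 0.08, adjusted p = 0.00152). Nhp2 rose from 189 and 201 to 268 and 262 CPM (log2 fold change 0.44 ± 0.08, adjusted p = 0.00171). Dkc1, or dyskerin, the pseudouridine synthase that these proteins surround, was at 416 and 399 CPM in WT/Mock and 459 and 451 in KO/Mock and just missed the threshold (0.16 ± 0.06, adjusted p = 0.0506). Nop10, the smallest subunit, gave 0.20 ± 0.10 (adjusted p = 0.118). The 4 proteins are also parts of telomerase.

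In the other groups, calls differed among the 4 subunits, and no difference between subunits was tested. Gar1 was at 32.0 and 32.3 CPM in KO/ERRb-wt, 30.7 and 30.2 in KO/ERRb-DBDm3, 29.4 and 27.99 in KO/ERRb-DBDm6, 28.2 and 33.1 in KO/ERRb-AF2M6 and 25.1 and 25.2 in KO/ERRg-wt, and was called lower than KO/Mock in the last 4. Nop10 was at 149 and 148 CPM in KO/ERRb-wt, 129 and 104 in KO/ERRb-DBDm3, 110 and 101 in KO/ERRb-DBDm6, 119 and 107 in KO/ERRb-AF2M6 and 121 and 115 in KO/ERRg-wt. It was called lower than both KO/Mock and KO/ERRb-wt in the mutant and ERR gamma groups, with log2 fold changes against KO/Mock of -0.36 to -0.51 in the mutants and -0.34 with ERR gamma. Nhp2 was at 220 and 221 CPM in KO/ERRb-wt, 285 and 252 in KO/ERRb-DBDm3, 248 and 236 in KO/ERRb-DBDm6, 257 and 275 in KO/ERRb-AF2M6 and 232 and 205 in KO/ERRg-wt. It was called lower than KO/Mock in KO/ERRg-wt (-0.28 ± 0.08, adjusted p = 0.0145) and higher than KO/ERRb-wt in KO/ERRb-DBDm3 (0.29 ± 0.08, adjusted p = 0.0156) and KO/ERRb-AF2M6 (0.27 ± 0.08, adjusted p = 0.0150). Dkc1 was called in none of the 11 comparisons, and its clones ranged from 399 to 472 CPM.

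Of the 19 small subunit processome and 40S factors, 12 were higher in KO/Mock, 1 lower and 6 not called. Utp14a, which works with an RNA helicase to release U3 from the precursor, was at 94.2 and 98.3 CPM in WT/Mock and 133 and 142 in KO/Mock, the largest increase of this list (log2 fold change 0.52 ± 0.08, adjusted p = 0.00108). Utp20, a large scaffold protein, went from 243 and 260 to 348 and 345 CPM (0.46 ± 0.09, adjusted p = 0.00329). Rrp12, which serves late 40S maturation and export, went from 88.8 and 95.8 to 127 and 121 CPM (0.43 ± 0.06, adjusted p = 6.31e-04). The clones of the 2 groups did not overlap for any of these 3. The 6 that were not called were Nol7, Nop14, Rrp7a, Utp11l (an older symbol of Utp11), Utp18 and Utp23, with log2 fold changes from 0.04 (Utp11l) to 0.17 (Nop14).

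Nop9 was the only member called lower in KO/Mock. It encodes an RNA-binding protein of the early 40S precursor and lies on chromosome 14, 55745693 to 55755634, plus strand. Its level was 147 and 151 CPM in the WT/Mock clones, 98.6 and 99.3 in KO/Mock and between 83.6 and 102 CPM in the 10 clones of the other ERR beta -/- groups, none of which overlapped WT/Mock. The log2 fold change of KO/Mock against WT/Mock was -0.59 ± 0.08 (adjusted p = 6.03e-04). The median gene of chromosome 14 moved by -0.56 in the same comparison, and the part of that shift in the result was not tested. Nop9 was called in no comparison between 2 ERR beta -/- groups.

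Among the 15 factors of 60S maturation, 12 rose in KO/Mock and 3 were not called. Nol9, a polynucleotide kinase of the large subunit precursor, showed the largest increase of all 48 members: 135 and 152 CPM in WT/Mock and 226 and 218 in KO/Mock (log2 fold change 0.63 ± 0.08, adjusted p = 3.79e-04). Rrs1, which helps to bring the 5S particle into the precursor, went from 55.7 and 66.7 to 98.1 and 86.7 CPM (0.59 ± 0.10, adjusted p = 0.00156). Bop1 and Pes1 are partners in the PeBoW complex, which is needed to process the 60S precursor. Bop1 was at 122 and 136 CPM in WT/Mock and 197 and 183 in KO/Mock (0.56 ± 0.09, adjusted p = 0.00114), and Pes1 at 226 and 229 and 295 and 292 CPM (0.37 ± 0.06, adjusted p = 0.00106). The KO/Mock and WT/Mock clones did not overlap for any of these genes. The 3 that were not called were Noc2l (-0.02 ± 0.07), Rrp1 (-0.05 ± 0.05) and Rrp15 (0.26 ± 0.15).

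**Figure D3:**
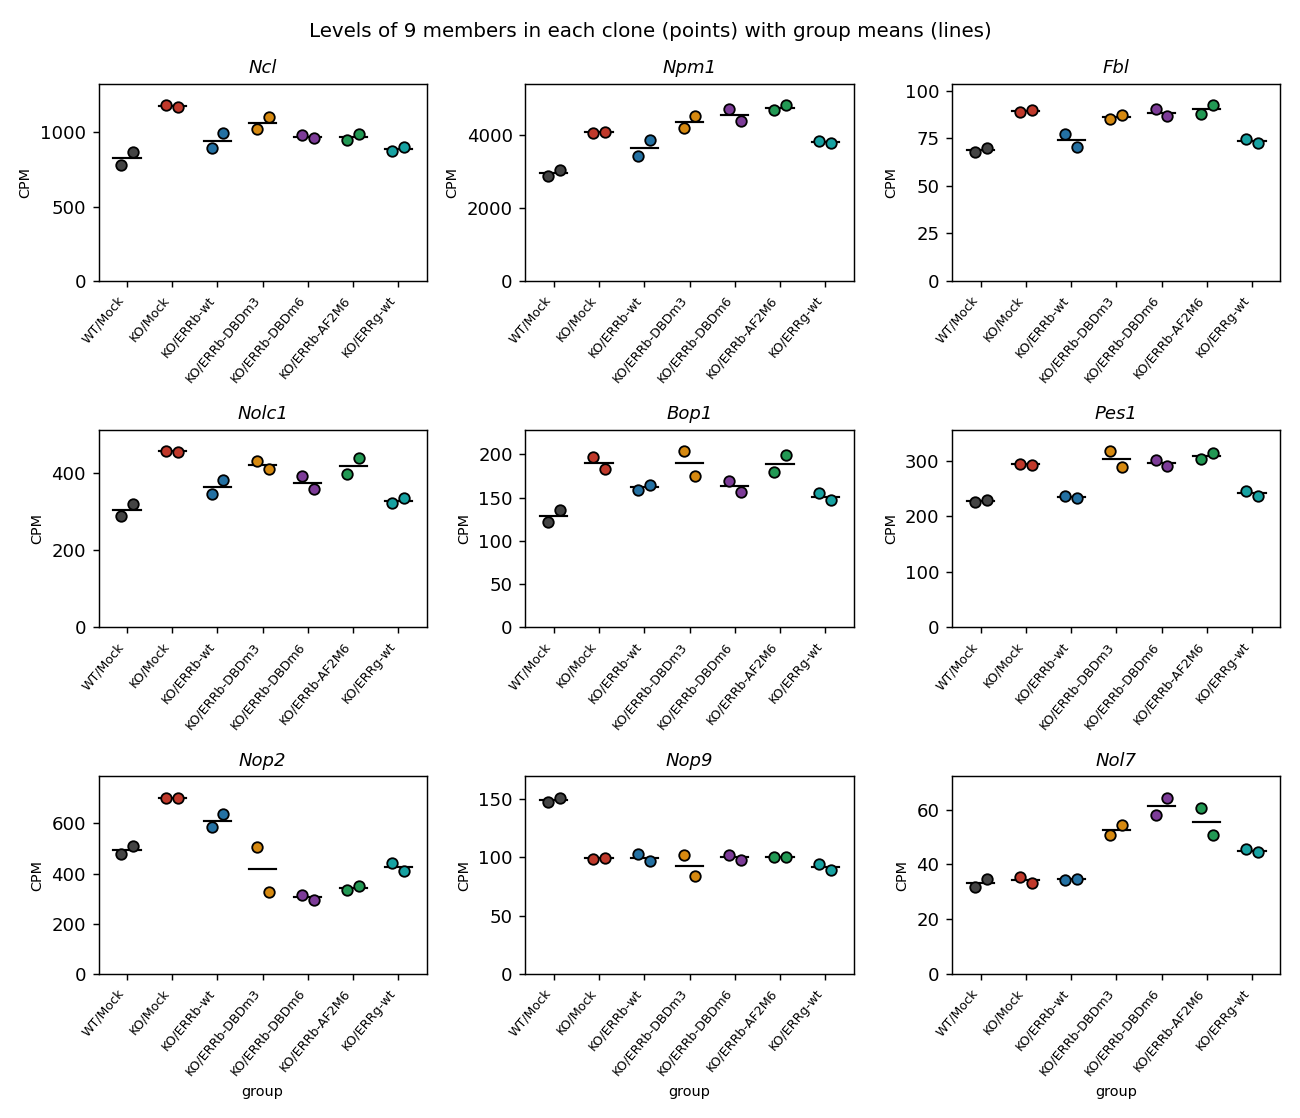
Level in CPM of 9 members in each clone (points) with the group mean (lines), by group. Ncl, Nolc1, Fbl, Bop1 and Pes1 are higher in KO/Mock than in WT/Mock and lower again in KO/ERRg-wt, Nop9 is lower in all 6 ERR beta -/- groups, and Nol7 is higher in every clone of the 3 mutant receptor groups and KO/ERRg-wt than in the other clones. Nop2 is lower in those 4 groups than in KO/Mock and KO/ERRb-wt, with KO/ERRb-DBDm3 clone 9-6 inside the WT/Mock range.

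With wild type ERR beta added, most members had lower values than in KO/Mock, but only 2 passed the test. In KO/ERRb-wt against KO/Mock, 0 of 48 members were called higher and 2 lower, Pes1 and Ncl. Over all tested genes 1.07% were called higher and 0.781% lower. Pes1 was at 237 and 233 CPM in KO/ERRb-wt and 295 and 292 in KO/Mock (log2 fold change -0.32 ± 0.06, adjusted p = 0.0219), and Ncl at 894 and 993 and 1186 and 1168 CPM (-0.32 ± 0.07, adjusted p = 0.0455). The median member gave -0.16, 43 of the 48 values were below 0, and 22 members had an unadjusted p under 0.05. The count varied with the fit. DESeq2 called 10 members and a fit of these 4 clones alone called 11, all lower. No member was called by edgeR without KO/ERRb-wt clone 8-3, KO/Mock clone 12-1 or KO/Mock clone 12-3, where 12, 11 and 16 members had an unadjusted p under 0.05. The KO/ERRb-wt clones themselves differed: clone 8-3 lay closer to WT/Mock (median log2 difference 0.12 over the members) than clone 8-4 (0.21).

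Against WT/Mock, KO/ERRb-wt remained higher in 4 members (Bop1, Nol9, Npm1 and Rrp12) and lower in Nop9. The backgrounds were 4.49% called higher and 5.79% lower. The log2 fold changes were 0.37 ± 0.08 for Nol9 (adjusted p = 0.0179), 0.33 ± 0.09 for Bop1 (adjusted p = 0.0408), 0.30 ± 0.07 for Npm1 (adjusted p = 0.0221), 0.24 ± 0.06 for Rrp12 (adjusted p = 0.0313) and -0.58 ± 0.08 for Nop9 (adjusted p = 0.00202). Without clone 8-4 or without WT/Mock clone 5-2 only 1 of the 48 was called, and without clone 8-3 10 were called. DESeq2 also called 10. Both KO/ERRb-wt clones lay above both WT/Mock clones and below both KO/Mock clones in 28 of 48 members (58.3%), and in 13.4% of all tested genes. Such a count can hold only genes with KO/Mock above WT/Mock, as most members were, so the gap between these shares is not a separate result. The mirrored pattern, below both WT/Mock clones and above both KO/Mock clones, held for 0 members and 1985 of the 15238 genes. The corresponding numbers of members between the Mock groups in the first direction were 23 for KO/ERRg-wt, 18 for KO/ERRb-DBDm6, 13 for KO/ERRb-DBDm3 and 10 for KO/ERRb-AF2M6. In the same order these were 47.9%, 37.5%, 27.1% and 20.8% of members, against 8.45%, 6.3%, 4.7% and 4.74% of all tested genes. The same limit holds for the gaps between these shares.

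**Figure D4:**
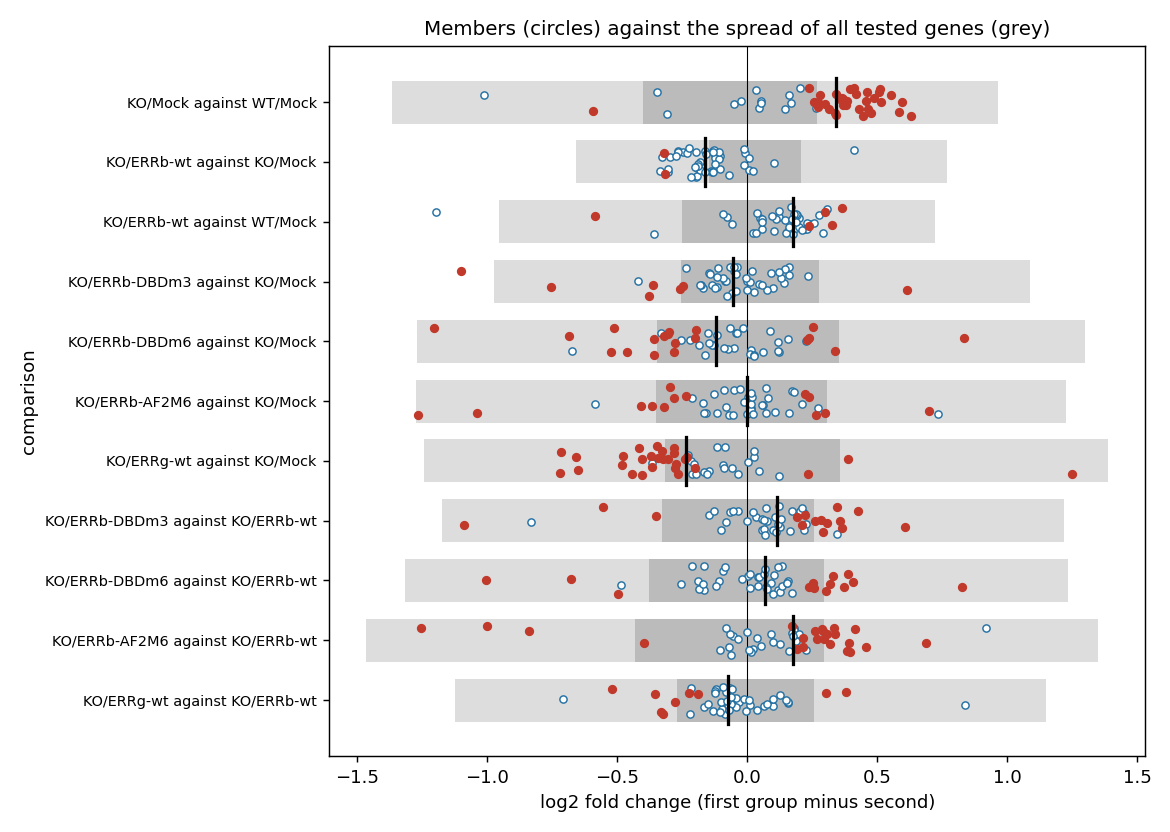
Log2 fold change of each member in the 11 comparisons (first group minus second), filled where called at an adjusted p under 0.05 and open where not, with the members' median as a black line. Grey bands give the central 50% (dark) and 90% (light) of all tested genes. The member median is highest in KO/Mock against WT/Mock (0.34) and lowest in KO/ERRg-wt against KO/Mock (-0.24).

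Most members were not called between a mutant receptor group and KO/Mock. Against KO/Mock, KO/ERRb-DBDm3 gave 1 member higher and 6 lower (backgrounds 12.4% and 13.3%), KO/ERRb-DBDm6 gave 5 and 14 (20.8% and 20.6%), and KO/ERRb-AF2M6 gave 5 and 8 (18% and 19.1%). The median members were at -0.05, -0.12 and 0.00. Marker lists moved here too: the 7 trophoblast markers summed to 119 and 191 CPM in the KO/ERRb-DBDm3 clones, 131 and 138 in KO/ERRb-DBDm6 and 131 and 189.5 in KO/ERRb-AF2M6, against 59.1 and 64.3 in KO/Mock. By gene, 2 of the 7 were higher than KO/Mock in each mutant group, and 4, 2 and 1 were lower. The 4 mesoderm markers summed to 4.55 and 25.9, 10.4 and 16.8, and 10.4 and 38.3 CPM in the same order, with 1 of 4 called lower in each. The part of these markers in the member levels was not tested. As shares of the 48, the lower calls of KO/ERRb-DBDm3 (12.5%) and KO/ERRb-AF2M6 (16.7%) were near the background, and those of KO/ERRb-DBDm6 (29.2%) were above it. The higher calls of KO/ERRb-DBDm3 (2.08%), KO/ERRb-DBDm6 (10.4%) and KO/ERRb-AF2M6 (10.4%) were below their backgrounds. For KO/ERRb-DBDm3 the 7 calls became 14 without clone 9-6, 4 without clone 9-8, 3 without KO/Mock clone 12-1, 4 without KO/Mock clone 12-3 and 0 in an edgeR fit of the 2 groups alone, where 7 members had an unadjusted p under 0.05. The 19 calls of KO/ERRb-DBDm6 became 7 without clone 10-26 and 9 without either KO/Mock clone. The 13 of KO/ERRb-AF2M6 became 7 without clone 32-31 or without either KO/Mock clone. With TMM factors from genes outside chromosomes 6, 8 and 14, the split was 2 higher and 16 lower for KO/ERRb-DBDm6 and 3 higher and 10 lower for KO/ERRb-AF2M6.

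Nop2 had the largest decrease among the established factors in these groups. It encodes a methyltransferase that places 5-methylcytosine on 28S ribosomal RNA and lies on chromosome 6, 125131883 to 125144753, plus strand. Nop2 was at 478 and 510 CPM in WT/Mock and 703 and 701 in KO/Mock, a rise of 0.51 ± 0.15 (adjusted p = 0.0217). It was at 586 and 637 CPM in KO/ERRb-wt, 506 and 327 in KO/ERRb-DBDm3, 316 and 293 in KO/ERRb-DBDm6, 332 and 352 in KO/ERRb-AF2M6 and 443 and 409 in KO/ERRg-wt. Every clone of the mutant and ERR gamma groups was below every KO/Mock clone, with log2 fold changes of -0.75 ± 0.15, -1.20 ± 0.15, -1.04 ± 0.15 and -0.72 ± 0.15 (adjusted p = 0.00482, 1.57e-04, 4.20e-04 and 0.00355). The median gene of chromosome 6 moved with it: against WT/Mock it was at -0.40 in clone 9-6 and -0.91 in clone 9-8, the KO/ERRb-DBDm3 clones with 506 and 327 CPM. It was at -0.90 in both KO/ERRb-DBDm6 and KO/ERRb-AF2M6 and -0.31 in KO/ERRg-wt. The part of that shift in the Nop2 result was not tested.

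Nol7 moved the opposite way. It encodes a small nucleolar protein of early 40S processing and lies on chromosome 13, 43398376 to 43402858, plus strand, where the median gene moved by -0.04 to 0.07 against WT/Mock in the 6 ERR beta -/- groups. Its level was 31.6 and 34.8 CPM in WT/Mock, 35.4 and 33.3 in KO/Mock and 34.5 and 34.6 in KO/ERRb-wt. It was 50.7 and 54.4 CPM in KO/ERRb-DBDm3, 58.1 and 64.4 in KO/ERRb-DBDm6, 60.5 and 50.9 in KO/ERRb-AF2M6 and 45.5 and 44.4 in KO/ERRg-wt, and no clone of these 4 groups overlapped the first 3. Log2 fold changes against KO/Mock were 0.62 ± 0.09, 0.84 ± 0.09, 0.70 ± 0.09 and 0.39 ± 0.09 (adjusted p = 0.00108, 7.04e-05, 2.30e-04 and 0.00743). Nol7 overlaps Ranbp9 on the opposite strand, and counting was strand-specific. Of all members, Nol7 had the smallest p in the test for any difference among the 7 groups.

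Noc2l, a partner of Noc3l in 60S precursor transport, was called higher than KO/Mock in KO/ERRb-DBDm6, KO/ERRb-AF2M6 and KO/ERRg-wt. It was at 294 and 280 CPM in KO/Mock, 361 and 366 in KO/ERRb-DBDm6, 336 and 342 in KO/ERRb-AF2M6 and 344 and 332 in KO/ERRg-wt (log2 fold changes 0.34 ± 0.07, 0.24 ± 0.07 and 0.23 ± 0.07). Utp3, a small subunit processome protein, was higher than KO/Mock in KO/ERRb-DBDm6 and KO/ERRb-AF2M6 (log2 fold changes 0.23 ± 0.07 and 0.30 ± 0.07), where its clones had 110 and 108 and 115 and 113 CPM against 92.1 and 93.7. The Utp3 call in KO/ERRb-DBDm6 depended on the fit, since not every alternative scaling, filter or method kept it. Utp20 fell from the KO/Mock level to 242 and 239 CPM in KO/ERRb-DBDm6 and 274 and 280 in KO/ERRb-AF2M6 (log2 fold changes -0.52 ± 0.09 and -0.32 ± 0.09). Rrp12 fell in all 3 mutants, by 0.25, 0.36 and 0.29 on the log2 scale in the order DBDm3, DBDm6 and AF2M6, with clones between 96.3 and 107 CPM. The same KO/Mock clones served every one of these comparisons.

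Set against the wild type receptor, more members were higher with a mutant than lower. KO/ERRb-DBDm3 against KO/ERRb-wt gave 12 higher and 3 lower (backgrounds 15.3% and 16.8%), KO/ERRb-DBDm6 gave 10 and 3 (19.1% and 20%), and KO/ERRb-AF2M6 gave 19 and 4 (20.3% and 22.8%). The median members were 0.12, 0.07 and 0.18. The share of members called higher was 25.0% for KO/ERRb-DBDm3, 20.8% for KO/ERRb-DBDm6, which is near its background, and 39.6% for KO/ERRb-AF2M6. Pes1 was called in all 3: 237 and 233 CPM in KO/ERRb-wt, 317 and 289 in KO/ERRb-DBDm3, 301 and 291 in KO/ERRb-DBDm6 and 302 and 315 in KO/ERRb-AF2M6. Its log2 fold changes were 0.36 ± 0.06, 0.33 ± 0.06 and 0.39 ± 0.06 (adjusted p = 0.00103, 0.00106 and 3.57e-04). Npm1 gave 0.26 ± 0.07, 0.32 ± 0.07 and 0.38 ± 0.07, Fbl gave 0.22 ± 0.06, 0.26 ± 0.06 and 0.29 ± 0.06, and Rrp9, a protein of the U3 particle, gave 0.34 ± 0.08, 0.30 ± 0.08 and 0.40 ± 0.08, each called in all 3 mutants. Ncl, Nolc1, Bop1 and Rrs1 were called in none of the 3. Leaving out KO/ERRb-wt clone 8-3 reduced the calls from 15 to 8 for KO/ERRb-DBDm3 and from 23 to 11 for KO/ERRb-AF2M6. Leaving out clone 32-31 also gave 11 for KO/ERRb-AF2M6, and leaving out clone 10-24 reduced KO/ERRb-DBDm6 from 13 to 7. A fit of the 2 groups alone called 1 member for KO/ERRb-DBDm3. With TMM factors from genes outside chromosomes 6, 8 and 14, the KO/ERRb-DBDm6 split was 9 higher and 5 lower.

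ERR gamma was accompanied by lower levels of most members than in KO/Mock. In KO/ERRg-wt against KO/Mock 3 members were higher, 25 lower and 20 not called, with backgrounds of 20% higher and 18.3% lower and a median member of -0.24. By role, the genes called lower were 10 of 15 for 60S factors, 8 of 19 for 40S factors, 3 of 4 for box H/ACA proteins, 2 of 3 for abundant proteins and 1 of 3 for box C/D proteins. Gar1 was at 25.1 and 25.2 CPM, below every other clone of the study, with a log2 fold change of -0.65 ± 0.08 (adjusted p = 2.06e-04). Utp20 was at 212 and 227 CPM (-0.66 ± 0.09, adjusted p = 3.29e-04), Nol9 at 160 and 158 CPM (-0.48 ± 0.08, adjusted p = 9.47e-04) and Nolc1 at 323 and 335 CPM (-0.48 ± 0.08, adjusted p = 7.85e-04). Npm1 was at 3860 and 3792 CPM and was not called (-0.09 ± 0.07, adjusted p = 0.303), nor were Dkc1 and Nop56. The 3 that rose were Nol4l, Nol7 and Noc2l. The 28 calls became 16 without KO/Mock clone 12-1, 17 without clone 14-1-10 and 18 without clone 14-11, and 15 members stayed called whichever clone was left out. KO/ERRg-wt clones had 1 library each and the smallest clone totals (25103562 and 27875142 counts).

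Directly against KO/ERRb-wt, KO/ERRg-wt was higher in 2 members and lower in 7, with backgrounds of 13.5% and 11.9%. As shares of the 48, the higher calls (4.17%) were below their background and the lower calls (14.6%) were near theirs. The 2 higher were Nol7 and Noc2l, and the 7 lower were Nop2, Gar1, Nop10, Utp20, Rrp8, Rrp12 and Ebna1bp2, with log2 fold changes from -0.52 (Nop2) to -0.19 (Ebna1bp2). These calls rested on few clones: 4 members were called without KO/ERRb-wt clone 8-3, 0 by edgeR without clone 8-4, 0 without clone 14-1-10 and 1 without clone 14-11. In each of the 2 fits with no call, 10 members had an unadjusted p under 0.05. Pes1 (0.04 ± 0.06) and Fbl (-0.00 ± 0.06) were not called between the 2 receptors.

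The 4 members taken in by name only are given one by one. Nol4l was at 7.19 and 8.39 CPM in KO/Mock and 19.6 and 17.5 in KO/ERRg-wt (log2 fold change 1.25 ± 0.31, adjusted p = 0.00860), and at 8.18 and 3.41 CPM in KO/ERRb-DBDm3. Nol3, on chromosome 8, was at 1.96 and 1.73 CPM in WT/Mock, 1.32 and 1.58 in KO/Mock and 0.585 and 0.619 in KO/ERRb-AF2M6 (log2 fold change against KO/Mock -1.27 ± 0.25, adjusted p = 0.00258). The median gene of chromosome 8 was at -0.49 against WT/Mock in KO/ERRb-AF2M6, and its part in the Nol3 result was not tested. Nol4 had 152 counts over all libraries and was called in no comparison. Utp14b was called higher in KO/Mock than in WT/Mock (0.34 ± 0.12, adjusted p = 0.04997), like most members, and lower in KO/ERRb-DBDm6 than in KO/Mock (-0.36, adjusted p = 0.0378).

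In the test for any difference among the 7 groups, 40 of 48 members were called, against 69.6% of all tested genes. The 8 not called by it were Dkc1, Nop16, Rrp15, Rrp1, Utp11l, Utp14b, Nol4 and Rrp7a. Of these, Nop16 and Utp14b were still called in KO/Mock against WT/Mock, Utp14b in KO/ERRb-DBDm6 against KO/Mock and Rrp15 in KO/ERRb-AF2M6 against KO/ERRb-wt. The established factors outside chromosomes 6, 8 and 14 numbered 42. Over the 14 clones their median pairwise Pearson correlation of log2 level was 0.62, and 87.7% of pairs were above 0. These pairs share libraries and scaling factors, so the values describe the clones only. Relative to the WT/Mock mean, the median of the 42 was 0.36 and 0.35 in the KO/Mock clones, 0.31 and 0.28 in KO/ERRb-DBDm3, 0.28 and 0.23 in KO/ERRb-DBDm6, 0.31 and 0.41 in KO/ERRb-AF2M6, 0.13 and 0.23 in KO/ERRb-wt, and 0.11 and 0.11 in KO/ERRg-wt. The KO/ERRg-wt clones and KO/ERRb-wt clone 8-3 were closest to WT/Mock. KO/ERRb-wt clone 8-4 lay next to KO/ERRb-DBDm6 clone 10-26, and over all 48 members their order turned (0.213 and 0.204), so KO/ERRb-wt was not set apart from KO/ERRb-DBDm6.

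Other genes of the pathway, from lists that hold no member, rose in KO/Mock and fell with ERR gamma in the counts below. Against KO/Mock, calls with a mutant receptor were more often lower than higher for RNA polymerase I and other 40S factors. For other 60S factors those calls went in both directions. The 2 of 15 polymerase genes called lower in KO/ERRb-DBDm3 and in KO/ERRb-AF2M6 were near or below the all-gene shares (13.3% and 19.1%). Polr1a, on chromosome 6, was 1 of the 2 in KO/ERRb-DBDm3. These lists were not counted without chromosomes 6, 8 and 14, and the part of the chromosome shifts in their calls was not tested. The all-gene shares of the comparisons with WT/Mock and KO/Mock stand with the members above. For RNA polymerase I and its factors, 10 of 15 genes were higher and 0 lower in KO/Mock against WT/Mock (median 0.37). For other 40S factors the counts were 21 and 0 of 24 (median 0.33), and for other 60S factors 24 and 2 of 32 (median 0.30). In KO/ERRb-wt against KO/Mock the counts were 0 and 0 for RNA polymerase I, 0 and 0 for other 40S factors, and 0 and 1 for other 60S factors (Urb1), and 3, 9 and 13 genes of these lists had an unadjusted p under 0.05 in edgeR. In KO/ERRg-wt against KO/Mock they were 2 higher and 10 lower, 0 and 14, and 2 and 17. For the mutants against KO/Mock, in the order DBDm3, DBDm6 and AF2M6, RNA polymerase I gave 0 higher and 2 lower, 1 and 5, and 1 and 2. Other 40S factors gave 0 and 5, 1 and 15, and 2 and 8, and other 60S factors 3 and 4, 4 and 9, and 8 and 6. Against KO/ERRb-wt in the same order, RNA polymerase I gave 2 and 2, 3 and 3, and 3 and 2, of 15 genes. The all-gene shares there were 15.3% and 16.8%, 19.1% and 20%, and 20.3% and 22.8%, so the polymerase counts were near or below them. In the same comparisons other 60S factors gave 11 and 3, 12 and 4, and 18 and 3. Other 40S factors gave 2 and 4, 3 and 5, and 6 and 3 there, with medians of 0.03, -0.12 and 0.02. The members' calls there were mostly higher, with 3 of the 48 members on chromosomes 6, 8 and 14. Other 40S factors were not counted by chromosome, so the part of the chromosome 6 and 8 shifts in this contrast was not tested. Among the polymerase genes Polr1c rose from 113 and 118 CPM in WT/Mock to 152 and 152 in KO/Mock (0.40 ± 0.07). Ubtf, the activator that opens ribosomal DNA, was at 284 and 307 CPM in WT/Mock and 356 and 361 in KO/Mock (0.28 ± 0.07), and Rrn3, the initiation factor of the polymerase, at 406 and 458 and 538 and 529 CPM (0.30 ± 0.09). Polr1a, the largest polymerase subunit, lies on chromosome 6 like Nop2. It was at 763 and 738 CPM in KO/Mock and 266 and 258 in KO/ERRb-DBDm6, and was not called between the Mock groups (0.24 ± 0.17, adjusted p = 0.307).

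The MYC family list was less uniform. It held Myc, Mycn and Mycl, whose products activate ribosome genes through E-box DNA, and their partner Max. It also held Mxd1, Mxd3, Mxd4, Mxi1, Mnt and Mga, which are not MYC genes themselves. Of these 10 genes, 5 were higher and 1 lower in KO/Mock than in WT/Mock, against 18% and 19.4% of all tested genes. Per kilobase of exon, Mycn was at 60.2 CPM in the mean of all clones, Mycl at 3.76 and Myc at 1.85. Mycn was at 74.3 and 93.4 CPM in WT/Mock, 166 and 143 in KO/Mock, 91.9 and 119 in KO/ERRb-wt, 243 and 234 in KO/ERRb-DBDm3, 211 and 184 in KO/ERRb-DBDm6, 221 and 223 in KO/ERRb-AF2M6 and 91.3 and 93.0 in KO/ERRg-wt. Its log2 fold change was 0.88 ± 0.13 in KO/Mock against WT/Mock (adjusted p = 8.73e-04) and -0.75 ± 0.13 in KO/ERRg-wt against KO/Mock (adjusted p = 0.00138). Against KO/Mock, KO/ERRb-wt gave -0.56 ± 0.13 and just missed the threshold (adjusted p = 0.0572). Myc was at 2.72 and 5.77 CPM in WT/Mock, 10.8 and 10.6 in KO/Mock, 4.60 and 6.85 in KO/ERRb-wt, 4.63 and 2.75 in KO/ERRb-DBDm3, 1.63 and 1.14 in KO/ERRb-DBDm6, 2.94 and 2.83 in KO/ERRb-AF2M6 and 3.05 and 2.01 in KO/ERRg-wt. The 3 mutant receptor groups held the highest clones for Mycn, and the lowest clones for Myc were those of KO/ERRb-DBDm6.

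The promoters of members were searched for the E-box letters CACGTG, bound by MYC with its partner MAX, and for AAGGTCA, the core of the element bound by ERR proteins, on both strands. Neither sequence contains the other. RefSeq windows (GRCm38.p6, the mm10 chromosomes) were given for 37 of the 48 members, and the 250 bases before the start were read. CACGTG was in 5 of the 37 (13.5%), against 6.86% of 27025 genes with such windows, and AAGGTCA was in 1 (2.7% against 4.70%). The stretches around the matches are printed 5′ to 3′ on the gene's strand, with the match in capitals, for the 4 established factors with CACGTG and the 1 with AAGGTCA.
Nop2 (chr6:125131796-125131855, match from base -60): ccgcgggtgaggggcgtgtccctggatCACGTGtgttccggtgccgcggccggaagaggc
Nol11 (chr11:107189392-107189451, minus strand, match from base -43): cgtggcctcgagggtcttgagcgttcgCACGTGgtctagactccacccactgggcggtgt
Utp18 (chr11:93885767-93885826, minus strand, match from base -20): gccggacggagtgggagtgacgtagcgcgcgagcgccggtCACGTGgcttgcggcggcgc
Rrp7a (chr15:83122977-83123036, minus strand, match from base -208): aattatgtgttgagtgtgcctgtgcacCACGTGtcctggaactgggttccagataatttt
Nhp2 (chr11:51619608-51619667, match from base -139, AAGGTCA on the opposite strand): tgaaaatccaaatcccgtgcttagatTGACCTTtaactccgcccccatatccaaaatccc
Of the 4 with CACGTG, Nop2 (0.51) and Nol11 (0.27) rose in KO/Mock against WT/Mock on the log2 scale, while Utp18 (0.05) and Rrp7a (0.06) were not called. Nhp2 rose (0.44). Nol9 (0.63) and Ncl (0.51), with larger increases than these, held neither sequence in the window. A match in these letters describes the window and not binding.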

How the data were processed

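Gene expression was measured in 26 libraries of ribosomal RNA-depleted, strand-specific RNA from 14 mouse ESC clones, read as single ends of 100 bp per the labels' protocols. Reads were aligned to mm10 with STAR (version 2.7.8a), per the submitters' processing notes. The deposited values are whole-number counts per gene made by the authors with featureCounts (version 2.0.1 per the file headers, although the submitters' processing notes give 2.0.10). The counting was over exons, for the reverse strand only and without multiply aligned reads, per the file headers, so genes with close copies are undercounted by an unknown amount.

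Counts of a clone's libraries were added. Clone totals ran from 25103562 to 54105869, with 1.19% to 3.22% of each library from Rn45s, which stayed in the totals. The 2 libraries of a clone differed by more than counting noise (chi-square per degree of freedom 2.39 to 18.1), so none looked like a library deposited again. edgeR (version 4.0.16, R 4.3.3) was used for a quasi-likelihood fit (robust) of 7 group means over all 14 clones, after filterByExpr and TMM scaling (factors 0.972 to 1.05). The test covered 15238 genes on 7 residual degrees of freedom, and a gene was called when its Benjamini-Hochberg adjusted p, over the whole table, was under 0.05. P-values rest on differences among clones, and the labels do not say how the clones of a group are related by descent. Levels are TMM-scaled CPM, and the log2 fold changes used a prior count of 0.125. Mean values carry the SD over 2 clones and fold changes their SE. Alternatives were limma (version 3.58.1) voom on single libraries, DESeq2 (version 1.42.0), other scalings and filters, and leaving out each clone. The fit was tested on simulated data with known changes.

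The members, the role lists and the related lists were chosen with earlier results of these data known. Ncl, Npm1, Fbl, Dkc1, Pes1 and Bop1 were always named, with up to 10 called members of largest change in each direction without overlap of clones, the highest and lowest member per role by length, members on chromosomes 6, 8 and 14, and up to 3 genes of smallest p per related list. Other members are named to complete a count. No row of the count table bears the symbol Utp4 or Nop53, so the rule took in neither. Lists of mesoderm, neural, trophoblast and primitive endoderm markers were computed as well, and their values are given beside the results and in the closing section. With 2 clones per group, the number of clones limits the precision of every difference.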

Additional observations from a re-analysis of the deposited data

How the results depend on the processing

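The counts of called members depended on single clones and on the fit. Leaving out each clone in turn gave 21 to 30 calls for KO/Mock against WT/Mock (34 with all clones), 0 to 2 for KO/ERRb-wt against KO/Mock (2), and 1 to 10 for KO/ERRb-wt against WT/Mock (5). Against KO/Mock the ranges were 3 to 14 for KO/ERRb-DBDm3 (7), 7 to 13 for KO/ERRb-DBDm6 (19), 7 to 11 for KO/ERRb-AF2M6 (13) and 16 to 20 for KO/ERRg-wt (28). Against KO/ERRb-wt they were 8 to 19 (15), 7 to 14 (13), 11 to 22 (23) and 0 to 4 (9) in the same order. A lone clone was assumed to vary like the clones of the other groups, and fewer clones leave fewer degrees of freedom. Among other alternatives, KO/ERRb-wt against KO/Mock gave 11 calls in a fit of its 2 groups, 10 with DESeq2 and 9 with voom on libraries. KO/ERRb-wt against WT/Mock gave 9 with 1 library per clone, 10 with DESeq2 and 10 with voom. Fits of the 2 groups alone gave 0 calls for KO/ERRb-DBDm3 against KO/Mock (edgeR, 7 at an unadjusted p under 0.05) and 1 for KO/ERRb-DBDm3 against KO/ERRb-wt, where the cause was not tested. Apart from these and the fits with library numbers given next, all alternatives stayed within 1.5 times the main count. For the 115 pairs of a named member and a comparison, no alternative reversed a direction, while 232 of 1451 single alternative fits lost the call.

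Library numbers are shared between groups in the labels. Over 66 pairs of clones, the differences between library 1 and library 2 had a median correlation of 0.009 (range -0.19 to 0.54), and 15 pairs were over 0.1. Since not every pair was, the numbers were not taken to pair the groups. The 6 pairs among clones 9-6, 10-24, 10-26 and 32-25 were at 0.44 to 0.54, so libraries of the same number did deviate together in these 4 clones. They also had the largest differences between libraries (chi-square per degree of freedom 11.7 to 18.1), and their summed member level was higher in library 1 than in library 2 (13172 and 12405, 13408 and 12281, 12873 and 11483, 13279 and 12375 CPM). With a replicate block for that number, in the 6 groups that have it, voom called 8 members for KO/ERRb-wt against KO/Mock and 11 for KO/ERRb-wt against WT/Mock. The same fit without the block, added after seeing the data, called 8 and 8.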

Other observations

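Some members differed between the 2 clones of a group by far more than the usual gap. Over 329 pairs of clones of a member with a mean of at least 1 CPM, the median gap was 0.08 on the log2 scale, and 6 gaps were over 0.5, of which 4 were in KO/ERRb-DBDm3 and 2 in KO/ERRb-AF2M6. These members were singled out after their values were seen. Rrp15, a 60S factor on chromosome 1, 186721087 to 186749358, minus strand, was at 104 and 162 CPM in clones 32-25 and 32-31 of KO/ERRb-AF2M6, while the 12 other clones lay between 88.5 and 110 CPM. Both libraries of clone 32-31 showed it (164 and 161 CPM, libraries 1 and 2), and both libraries of clone 32-25 did not (106 and 101 CPM). The median gene of chromosome 1 was at 0.20 against WT/Mock in clone 32-31, 0.04 in clone 32-25 and at most 0.09 in any other clone, and its part in the Rrp15 value was not tested. Nvl, another 60S factor, was at 153 and 229 CPM and Taf1a, a factor of RNA polymerase I, at 26.5 and 44.8 CPM in clones 32-25 and 32-31. Nop16, another 60S factor, was at 109 and 72.9 CPM in KO/ERRb-DBDm3 clones 9-6 and 9-8, a gap of 0.58, on a chromosome whose median gene did not differ from WT/Mock by more than 0.07 in any ERR beta -/- group. Nol4l was at 8.18 and 3.41 CPM in the same 2 clones.

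Rn45s, the gene entry for the ribosomal RNA precursor, was at 15013 CPM in WT/Mock, 21743 in KO/Mock, 21943 in KO/ERRb-wt, 27126 in KO/ERRb-DBDm3, 21611 in KO/ERRb-DBDm6, 24426 in KO/ERRb-AF2M6 and 18524 in KO/ERRg-wt. These counts are what remained after removal of ribosomal RNA, so they do not measure its synthesis.

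Of the other marker lists, 0 of 6 primitive endoderm genes were called higher and 4 lower in KO/Mock against WT/Mock, and 1 and 0 in KO/ERRg-wt against KO/Mock. Their summed level was 9.55 and 9.77 CPM in the WT/Mock clones, 2.16 and 2.55 in KO/Mock and 8.33 and 8.78 in KO/ERRg-wt, with Gata4 at 7.39, 1.44 and 2.45 CPM in the group means. Of 7 trophoblast genes 1 was higher and 3 were lower in the first comparison, and 2 higher and 1 lower in the second. Their sums were 78.6 and 79.4 CPM in WT/Mock, 59.1 and 64.3 in KO/Mock and 106 and 114 in KO/ERRg-wt. No gene of these 2 lists was at 0 in both clones of any of these 3 groups. Of the 6 fibroblast genes, 4 had enough counts to be tested. Among them 1 was higher and 2 were lower in the first comparison, and 0 and 1 in the second. All 6 summed to at most 7.01 CPM in these 3 groups. The part of these marker lists in the member levels was not tested.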
